A study of Mus musculus with 12 samples.

Results

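The step between 6 h and 12 h of exposure to nanoparticles was examined in mouse dendritic cells, across all measured genes. The 3 samples titled as nanoparticle-treated for 12 h were set against the 3 titled for 6 h, which made 6 of the 12 samples of the series. The cells came from the bone marrow of female mice aged 6 to 8 weeks. They had grown in 20 ng/ml GM-CSF, a growth factor that turns marrow precursors into dendritic cells, and floating or loosely attached cells were collected on day 7 as immature dendritic cells. Both groups then received 300 µg/ml of nanoparticles made of γ-PGA, poly(γ-glutamic acid), a biodegradable polymer made by bacteria. The only labelled difference between them was the hours with the particles, 12 or 6. Samples at 0 h and 24 h entered the estimate of the spread, and those at 0 h also serve as the level against which table ratios and list medians are given. No culture without particles was kept for 6 or 12 h among the samples used here, so time in culture and exposure cannot be told apart. The series design speaks of independent experiments, 3 in number. RNA was labelled with Cy3 and hybridised to 1-colour Agilent arrays.

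Immature dendritic cells take up particles and sample their surroundings. When pattern-recognition receptors are triggered, an early wave of cytokine and chemokine genes driven by NF-kB and AP-1 is followed by a later wave in which secreted type I interferon acts back on the cells through its receptor and switches on antiviral genes. These genes carry the interferon-stimulated response element (ISRE) near their start sites. Maturing cells also raise costimulatory molecules and the lymph node homing receptor CCR7, leave the cell cycle and alter sterol synthesis.

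Values of the same 12 labelled samples came from 2 deposited sources, and every gene is given in both. The scanner level is the log2 of the processed signal of a probe minus the 75th percentile of its array. The table ratio is the linear ratio, in the deposited value table, to the median of the probe's 3 values at 0 h. Differences are 12 h minus 6 h on the log2 scale with their standard error (SE), n = 3 per group, and adjusted p-values are limma's, adjusted by the Benjamini-Hochberg method over all 18400 genes. A call needed both an adjusted p under 0.05 and a difference of 2-fold or more. Bulk RNA cannot tell fewer cells of a type from less RNA per cell.

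On the arrays, 50.9% to 57.9% of spots at 6 and 12 h were well above background and 177 to 223 were saturated. Arrays correlated at 0.989 to 0.994 within 12 h and at 0.988 to 0.993 within 6 h, against 0.973 to 0.981 between these times. Columns of the value table correlated at 0.949 to 0.954 within 12 h and at 0.932 to 0.940 within 6 h, against 0.851 to 0.879 between them. Arrays labelled 24 h stood apart from their table columns: they correlated at 0.990 to 0.992 with those at 0 h and at 0.907 to 0.913 with those at 12 h, whereas the table's 24 h columns correlated at 0.884 to 0.913 with its 12 h columns. Without the samples at 0 and 24 h the scanner values still called 842 genes up and 354 down between 6 and 12 h, and 542 and 476 were called in the table.

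Of the 19 measured dendritic cell markers, 16 were well above background on all 6 arrays, among them Itgax (the integrin CD11c) and the MHC class II genes H2-Aa, H2-Ab1 and Cd74. Cd209a and Clec9a were not well above background on any of them. Markers of other cell types were also present in these GM-CSF cultures. All 16 measured macrophage and monocyte markers, all 16 of neutrophils and granulocyte precursors, and 12 of 13 of mast cells, basophils and eosinophils were above background on all 6 arrays, as were 10 of 12 for erythroid cells and megakaryocytes and 10 of 12 for stroma and fibroblasts, against 6 of 13 for T cells and natural killer cells and 6 of 10 for B cells and plasma cells.

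Between 6 and 12 h the scanner values called 899 genes up (4.89% of 18400) and 387 down (2.1%), and the value table called 565 up (3.07%) and 502 down (2.73%). The 2 sources seldom named the same genes. Both raised 57 genes (0.31%), and both lowered 19 (0.103%). Called in opposite directions were 152 genes (0.826%), of which 122 (0.663%) were up by the scanner and down by the table and 30 (0.163%) down by the scanner and up by the table. Of the 899 genes up by the scanner 6.34% were up and 13.6% down in the table. Of the 387 down by the scanner 4.91% were down and 7.75% up in the table. Of the 565 genes that rose in the table, 10.1% were up and 5.31% down by the scanner. Of the 502 genes that fell in the table, 3.78% were down and 24.3% up by the scanner. Across all genes the changes correlated between the sources at -0.13 (Pearson's r) and -0.12 (Spearman's rho), which describes likeness only, since genes are not independent replicates.

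In a joint fit with a term for source, the change differed between the sources by at least 2-fold at an adjusted p under 0.05 in 2694 genes (14.6%), with the table's change below the scanner's in 1441 (7.83%) and above it in 1253 (6.81%). This test takes arrays and columns as independent although they carry the same labels. That the 152 opposed genes differ between the sources follows from how they were chosen. The 3 samples at 12 h did not overlap with the 3 at 6 h in 50.2% of all genes by the scanner and 54.3% in the table. When genes were split by mean signal into 3 equal bins, low to high, 65, 44 and 43 were opposed and 48, 16 and 12 shared. Among the 14883 genes well above background on all 6 arrays, 98 were opposed and 44 shared. Of 22 opposed genes with several probes, 21 had opposite signs between the sources for every probe. Arrays lay on 3 slides, and the only slide with both times held 2 arrays of each. The scanner values of that slide alone, set against the whole table, gave 128 opposed genes (104 up by the scanner, 24 down) and 66 shared (49 up, 17 down). Which source carries the labelled times as they were cannot be told apart from these files, so a change found in 1 source is given below as that source's alone.

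**Figure D1:**
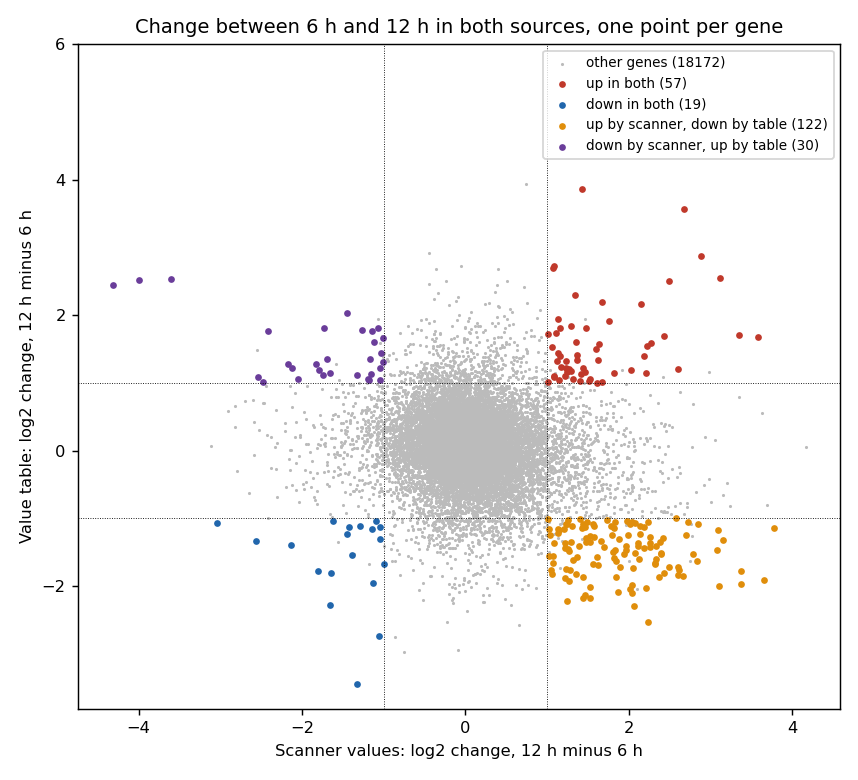
Change between 6 h and 12 h of each gene in the scanner values (horizontal axis, log2) and in the value table (vertical axis, log2), with dotted lines at 2-fold; coloured points passed an adjusted p under 0.05 and 2-fold in both sources. Opposed genes (122 and 30) outnumber those that moved together (57 up and 19 down).

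Genes that rose in both sources included acute-phase and complement proteins. Among 17 measured genes of acute-phase and antibacterial proteins, 6 rose by the scanner and 4 rose in the table, and the 4 that rose in both were Saa1, Saa3, Orm1 and Orm2. The list's median difference was 0.56 by the scanner and 0.078 in the table, against 0.032 and 0.076 over all genes. Saa1, an acute-phase apolipoprotein, had scanner levels of 6.42, 6.53 and 6.43 at 12 h, against 5.12 and 4.85 at 6 h in the 2 arrays that gave a value, and table ratios of 74.9, 76.0 and 69.6 at 12 h, against 21.1, 20.4 and 21.2 at 6 h. It rose 2.78-fold by the scanner (difference 1.48 ± 0.12, adjusted p = 1.01e-05) and 3.52-fold in the table (1.82 ± 0.060, adjusted p = 4.57e-08). The groups did not overlap in either source, which the rule for naming shared genes required. The spot of Saa1 on the array of 6 h replicate 2 was marked as an outlier and left out. Saa3, the family member made by macrophages and other non-liver cells, was saturated on the arrays at 12 h. Its scanner levels were 7.55, 7.78 and 7.53 at 12 h, against 6.45, 6.20 and 6.33 at 6 h, which makes a rise of at least 2.45-fold (adjusted p = 1.38e-06). In the table its ratios were 1036, 1147 and 998 at 12 h, against 315, 296 and 277 at 6 h, a rise of 3.58-fold (1.84 ± 0.13, adjusted p = 2.69e-06).

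Orm1 and Orm2 encode α1-acid glycoproteins, which carry drugs and dampen inflammation. Orm1 was well above background on 3 arrays at 12 h and 2 at 6 h, at scanner levels of -2.64, -1.74 and -2.41 at 12 h, against -3.59, -4.30 and -3.90 at 6 h, and its table ratios were 20.0, 16.9 and 20.9 at 12 h, against 3.83, 4.58 and 4.24 at 6 h. It rose 3.17-fold by the scanner (adjusted p = 9.70e-04) and 4.55-fold in the table (adjusted p = 5.49e-06). Orm2, taken after its value was seen, rose 2.01-fold by the scanner, just past the 2-fold line, and 3.31-fold in the table. The probes of these near-identical neighbours may share signal. Cfb, complement factor B of the alternative pathway, had scanner levels of 7.35, 7.45 and 7.33 at 12 h, against 5.16, 5.12 and 5.18 at 6 h. The table gave ratios of 38.3, 40.2 and 37.4 at 12 h, against 14.3, 12.7 and 12.9 at 6 h. Cfb rose 4.67-fold by the scanner (2.22 ± 0.043, adjusted p = 3.68e-10) and 2.90-fold in the table (1.54 ± 0.064, adjusted p = 1.32e-07). Hc, which encodes complement C5, rose alike in both sources, 4.44-fold (2.15 ± 0.10, adjusted p = 9.43e-08) and 4.49-fold (2.17 ± 0.40, adjusted p = 0.0015). Its table ratios were 13.1, 14.3 and 11.2 at 12 h, against 3.20, 2.71 and 2.67 at 6 h. In the list of complement and Fc receptor genes, 17 measured without Hc, Cfb was the only one called in the same direction by both sources. C2, Fcgr1 and Fcgr4 rose in the scanner values alone, and C1qb and C1qc fell in the table alone. Of these, C2, Fcgr4 and C1qc were taken after their values were seen.

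Genes of 2 secreted enzymes also rose in both. Plat, tissue plasminogen activator, had scanner levels of 1.19, 1.09 and 1.18 at 12 h, against -1.42, -1.31 and -1.30 at 6 h. In the table its ratios were 21.8, 21.8 and 19.0 at 12 h, against 4.04, 3.20 and 3.79 at 6 h. The rise was 5.63-fold by the scanner (2.49 ± 0.10, adjusted p = 3.48e-08) and 5.69-fold in the table (2.51 ± 0.11, adjusted p = 2.11e-07). Enpp2, autotaxin, which makes the lipid mediator lysophosphatidic acid, had scanner levels of -0.46, -0.55 and -0.30 at 12 h, against -3.51, -3.83 and -3.34 at 6 h, and rose 8.69-fold (3.12 ± 0.16, adjusted p = 1.42e-07). In the table its ratios were 1.69, 2.09 and 1.99 at 12 h, against 0.345, 0.325 and 0.319 at 6 h, a rise of 5.82-fold (2.54 ± 0.12, adjusted p = 2.43e-07). The table thus placed Enpp2 below its 0 h level at 6 h and above it at 12 h. The scanner placed it above its 0 h level (mean of -4.82) at both times, so the sources opposed each other at 6 h relative to 0 h. That 0 h level is dim. Its values of -5.09, -4.75 and -4.61 lay below the lowest signal well above background on those arrays (-4.69, -4.55 and -4.26). Among related genes of the plasminogen system, Plau, urokinase, fell 2.85-fold by the scanner, with a table difference of 0.089 ± 0.078 (adjusted p = 0.378).

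Receptor and signalling genes also rose in both. Il23r, the IL-23 receptor chain, was not well above background at 6 h and was kept for testing only through its arrays at 12 h. It rose at least 5.67-fold by the scanner, with scanner levels of -1.85, -1.76 and -1.96 at 12 h, against -4.85, -4.75 and -6.00 at 6 h. The limma adjusted p of 4.92e-06 belongs to the difference without this bound. The table gave ratios of 5.83, 6.90 and 6.69 at 12 h, against 3.11, 2.16 and 1.17 at 6 h (1.70 ± 0.41, adjusted p = 0.00654). Stat4, which carries signals of IL-12 and type I interferon, had scanner levels of 2.31, 2.26 and 2.26 at 12 h, against 0.34, 0.14 and 0.26 at 6 h and rose 4.09-fold (adjusted p = 2.45e-09). Its ratios in the table were 4.26, 4.17 and 3.59 at 12 h, against 1.79, 1.72 and 1.75 at 6 h, a rise of 2.28-fold (adjusted p = 1.10e-05). Stat4 was the only 1 of 19 interferon regulatory factor and JAK-STAT genes called in both. Cxcr5, the receptor for the follicular chemokine CXCL13, rose 6.09-fold by the scanner (2.61 ± 0.21, adjusted p = 4.95e-06). Its table ratios of 6.11, 17.3 and 15.2 at 12 h, against 4.82, 5.55 and 4.82 at 6 h gave a rise of 2.32-fold (adjusted p = 0.0113). That call rested on 12 h replicate 2, without which the table difference was 0.93, and it was lost when table columns were centred (adjusted p = 0.0556).

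Further shared rises included genes of metabolism and stress. Pfkfb3, which makes the activator of phosphofructokinase and so speeds glycolysis, had scanner levels of 5.36, 5.37 and 5.24 at 12 h, against 3.71, 3.61 and 3.79 at 6 h. It rose 3.08-fold by the scanner (adjusted p = 8.48e-09) and 2.52-fold in the table (adjusted p = 9.10e-07). It was the only shared call among 25 measured genes of glycolysis and the hypoxia response, whose median difference was 0.30 by the scanner and 0.39 in the table. Ddit4, an inhibitor of mTORC1 induced by stress, rose by nearly the same amount in both, 2.35-fold (1.23 ± 0.037, adjusted p = 4.21e-09) and 2.33-fold (1.22 ± 0.080, adjusted p = 1.81e-06). Gadd45g, a growth arrest and DNA damage gene, rose 2.86-fold by the scanner. The table gave 2.03-fold (adjusted p = 4.20e-07), which fell just below 2-fold without 6 h replicate 3 (0.99) or 12 h replicate 2 (1.00), and after centring. Outside these groups, Prnp, the prion protein gene, rose 3.03-fold and 2.82-fold (adjusted p = 9.42e-09 and 1.83e-07). Ly6f, of the Ly6 family of surface proteins, rose 5.39-fold and 3.22-fold. For Lrig1, a brake on EGF-family receptors, the rise was at least 2.95-fold by the scanner, against 3.02-fold in the table. Plekhs1 had table ratios of 6.73, 6.94 and 6.07 at 12 h, against 0.895, 0.942 and 0.842 at 6 h, a rise of 7.36-fold, and the scanner's bound was at least 2.53-fold. Paqr8, a membrane progestin receptor, rose at least 1.77-fold by the scanner. Its table ratios were 0.891, 1.05 and 4.32 at 12 h, against 0.640, 0.472 and 0.503 at 6 h, and the table's call was lost without 6 h replicate 2 or 3 and without 12 h replicate 3, which took the difference to 1.49, 1.54 and 0.86, and after centring.

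Several shared rises rested on background correction or scaling. Normexp correction ended the scanner calls of Plekhs1 (0.74), Orm1 (0.75), Lrig1 (0.83) and Paqr8 (0.55). Quantile normalization ended the table calls of Hc (1.79), Il23r (1.37), Orm1 (1.81), Lrig1 (1.23), Paqr8 (1.23), Cxcr5 (0.96), Stat4 (0.91), Ddit4 (0.90) and Gadd45g (0.77). The calls of Plat, Enpp2, Cfb, Saa1, Saa3, Pfkfb3, Prnp and Ly6f kept their side of the threshold under both.

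Of the 19 genes that fell in both sources 11 had a symbol, among them a cytokine, a chemokine and a growth factor. Csf2 encodes GM-CSF itself, made by activated myeloid cells. Its scanner levels were 0.36, 0.29 and 0.24 at 12 h, against 2.95, 2.79 and 2.85 at 6 h, a fall of 5.93-fold (-2.57 ± 0.064, adjusted p = 1.50e-09). The table ratios were 1.14, 3.56 and 1.34 at 12 h, against 4.45, 3.83 and 5.11 at 6 h, with 1 column at 12 h close to those at 6 h (-1.33 ± 0.38, adjusted p = 0.016). Without 6 h replicate 3, 12 h replicate 1 or 12 h replicate 3 the table no longer called Csf2 (differences of -1.23, -1.02 and -1.14). Ppbp, the neutrophil-attracting chemokine CXCL7, had scanner levels of 1.47, 1.42 and 1.36 at 12 h, against 4.48, 4.42 and 4.49 at 6 h, a fall of 8.24-fold (-3.04 ± 0.041, adjusted p = 1.39e-10). Table ratios of 49.9, 48.2 and 47.9 at 12 h, against 109, 96.4 and 103 at 6 h gave a fall of 2.11-fold (-1.07 ± 0.052, adjusted p = 2.88e-07). The size of the fall differed between the sources (joint adjusted p = 1.43e-14). At 12 h Ppbp lay below its 0 h level by the scanner (mean of 2.84 at 0 h) and far above it in the table. Ereg, the EGF-receptor ligand epiregulin, had scanner levels of -0.67, -0.66 and -0.48 at 12 h, against 0.79, 0.31 and 0.50 at 6 h and table ratios of 5.66, 5.16 and 5.87 at 12 h, against 22.3, 19.7 and 22.5 at 6 h. It fell 2.20-fold by the scanner (adjusted p = 6.60e-04) and 3.86-fold in the table (adjusted p = 7.93e-06).

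Cd5l, a secreted protein of macrophages that binds lipids and microbes, fell by similar amounts in both sources. It had scanner levels of -1.96, -2.23 and -2.15 at 12 h, against -0.14, -0.56 and -0.21 at 6 h, a fall of 3.50-fold (-1.81 ± 0.10, adjusted p = 3.94e-07). In the table its ratios were 2.97, 3.07 and 2.97 at 12 h, against 11.0, 10.1 and 9.84 at 6 h, a fall of 3.42-fold (-1.78 ± 0.091, adjusted p = 3.80e-07). Relative to 0 h the sources opposed each other. The scanner mean of Cd5l at 0 h was 1.25, above both later times, whereas the table placed both times above 0 h. Fcrl1, of the Fc receptor-like family, fell 2.06-fold and 2.48-fold, and Eid3 fell 2.68-fold and 2.18-fold. Col16a1, a fibril-associated collagen, fell 2.51-fold by the scanner (-1.33 ± 0.34, adjusted p = 0.00865), no longer called with the slide as a fixed block (-1.25), and 10.9-fold in the table, where its ratios were 1.39, 1.12 and 1.18 at 12 h, against 14.2, 13.1 and 12.8 at 6 h. The other named falls were dim on some or all arrays. Crisp3 was not well above background at 12 h and fell at least 1.44-fold by the scanner, a call lost without 6 h replicate 1 (-0.84) or 12 h replicate 1 (-0.88), against 6.65-fold in the table. Aqp3, an aquaglyceroporin, well above background on 1 array at 12 h, fell 3.07-fold by the scanner and 2.06-fold in the table, where the difference was -0.96 without 6 h replicate 1. Epha2 and the mitotic kinase gene Ttk were not well above background on any array of either time, so no scanner fold is given. Their table differences were -1.23 ± 0.33 and -1.03 ± 0.089, which became -0.97 for Epha2 without 6 h replicate 3 and -0.96 for Ttk without 12 h replicate 2. Normexp correction ended the scanner calls of Col16a1 (-0.42), Ereg (-0.92), Eid3 (-0.92), Fcrl1 (-0.84), Crisp3 (-0.19) and Aqp3 (-0.19), and quantile normalization ended the table calls of Csf2 (-1.23), Aqp3 (-0.69), Epha2 (-0.82) and Ttk (-0.78).

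**Figure D2:**
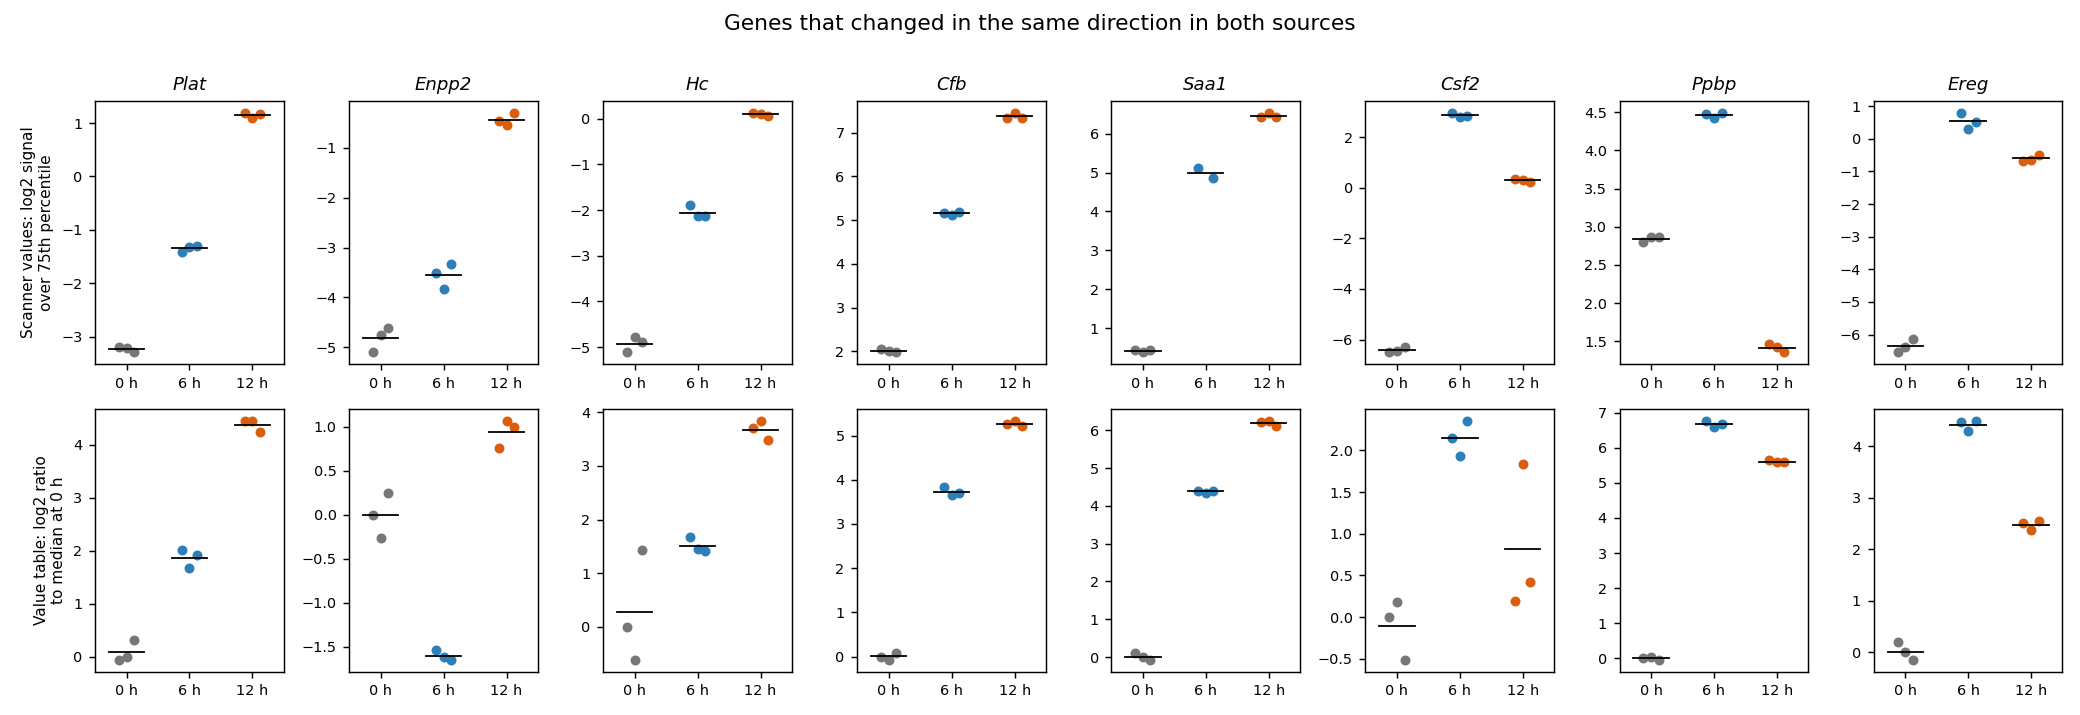
Levels of 8 genes that changed in the same direction in both sources, in order of time (0, 6 and 12 h); the upper row gives scanner levels (log2 over the 75th percentile of the array), the lower row log2 table ratios, points are samples and bars are group means. Plat, Enpp2, Hc, Cfb and Saa1 are higher at 12 h than at 6 h in both rows, and Csf2, Ppbp and Ereg are lower.

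Antiviral genes driven by type I interferon moved in opposite directions in the 2 sources. Of 28 measured genes of this list 27 rose and 0 fell by the scanner, with a median difference of 1.89, while 0 rose and 15 fell in the table, with a median of -1.03. The 15 that fell in the table were all among the 27 that rose by the scanner. The exception by the scanner was Ifnb1 itself. Relative to the mean at 0 h, the median member stood at 2.86, 2.87 and 2.81 on the scanner's log2 scale at 12 h, against 1.19, 0.94 and 1.13 at 6 h. In the table it stood at 0.41, 0.48 and 0.37 at 12 h, against 1.26, 1.08 and 1.13 at 6 h. The list's medians at 6 h were close in the 2 sources, and those at 12 h were not, although single genes such as Ifit1 also differed at 6 h. The median was 1.92 by the scanner within the slide that held both times and -1.18 in the table after each column was centred on its median. The difference between the sources passed the joint test at 2-fold for 25 of the 28 genes.

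Ifit1, whose product binds foreign RNA, had scanner levels of 6.10, 6.00 and 6.04 at 12 h, against 3.96, 3.74 and 3.82 at 6 h. It rose 4.61-fold by the scanner (2.21 ± 0.058, adjusted p = 1.93e-09). Its ratios in the table were 6.31, 6.35 and 5.69 at 12 h, against 27.2, 23.5 and 23.8 at 6 h, a fall of 4.06-fold (-2.02 ± 0.11, adjusted p = 6.78e-07). The neighbouring Ifit2 rose 4.12-fold (2.04 ± 0.056) and fell 4.27-fold (-2.09 ± 0.12) in the same order of sources, and its table ratios were 5.55, 5.66 and 4.71 at 12 h, against 24.8, 21.9 and 21.2 at 6 h. Cmpk2, a mitochondrial nucleotide kinase, rose 3.64-fold by the scanner and fell 4.26-fold in the table. Ifi44l rose 4.16-fold and fell 4.91-fold, and its table ratios of 0.493, 0.496 and 0.473 at 12 h, against 2.74, 2.31 and 2.16 at 6 h put it under its 0 h level at 12 h. Isg15, a ubiquitin-like modifier, and Rsad2, the antiviral enzyme viperin, both taken after their values were seen, were saturated on the arrays at 12 h. Their rise by the scanner was at least 2.33-fold and 2.35-fold, and they fell 2.58-fold and 3.36-fold in the table. Irf7, the factor that amplifies interferon production, rose 6.01-fold by the scanner (2.59 ± 0.071) and was not called in the table (-0.39 ± 0.088, adjusted p = 0.0046). Oas2, a sensor of double-stranded RNA, rose 5.24-fold by the scanner, against a table difference of -0.89 ± 0.087. Ifnb1, the gene of interferon β, changed by the same amount in both sources, -0.89 ± 0.070 by the scanner and -0.89 ± 0.12 in the table (adjusted p = 3.59e-06 and 2.03e-04), short of 2-fold in each.

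The GTPases that interferon-γ and type I interferon induce behaved alike. All 13 measured members rose by the scanner, with a median of 1.75, and 6 fell in the table, with a median of -0.91. Tgtp1, an immunity-related GTPase, had scanner levels of 5.39, 5.31 and 5.36 at 12 h, against 2.66 and 2.71 at 6 h, with 2 arrays giving a value at 6 h. It rose 6.34-fold (2.66 ± 0.043, adjusted p = 6.12e-10). The table ratios of Tgtp1 were 1.80, 1.77 and 1.57 at 12 h, against 6.71, 6.01 and 5.80 at 6 h, a fall of 3.60-fold (adjusted p = 1.58e-07). Iigp1 rose 3.91-fold and fell 2.66-fold, and the giant GTPase gene Gvin1 rose 2.57-fold and fell 2.98-fold. Irgm2 and Igtp rose by 5.58-fold and by 4.84-fold on the arrays and had table differences of -0.83 ± 0.078 and -0.91 ± 0.073. These families hold near-identical genes whose probes may share signal.

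Chemokines that bind CXCR3 and draw activated T cells followed the same pattern. Cxcl10 had scanner levels of 6.80, 6.84 and 6.78 at 12 h, against 4.69, 4.42 and 4.61 at 6 h, a rise of 4.72-fold (2.24 ± 0.062, adjusted p = 2.39e-09). The table gave ratios of 19.4, 21.1 and 17.9 at 12 h, against 125, 109 and 104 at 6 h, a fall of 5.80-fold (-2.54 ± 0.077, adjusted p = 3.73e-08). The change differed between the sources (joint adjusted p = 5.02e-16). Cxcl9 rose 5.01-fold by the scanner, and fell 3.15-fold in the table, with ratios of 31.3, 32.6 and 27.2 at 12 h, against 108, 86.8 and 92.6 at 6 h. Ccl12, a monocyte attractant, rose 2.88-fold and fell 2.55-fold.

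Promoters are shown for Cxcl10, Ifit1 and Isg15, interferon-induced genes opposed between the sources, and for Saa3, which rose in both. Only promoters with a match to a searched core, described below, could be chosen. That those shown hold a match therefore says nothing about their classes. Each promoter runs from 250 bases before to 50 bases after a RefSeq start site in GRCm38.p6, 5′ to 3′ on the strand of the gene. Capitals mark matches to the ISRE core, read on either strand. The core searched was GAAA, 2 free bases and GAAA. The regions are chr5:92348840-92349139 on the minus strand, chr19:34640639-34640938 on the plus strand, chr4:156200769-156201068 on the minus strand and chr7:46715627-46715926 on the minus strand.
Cxcl10: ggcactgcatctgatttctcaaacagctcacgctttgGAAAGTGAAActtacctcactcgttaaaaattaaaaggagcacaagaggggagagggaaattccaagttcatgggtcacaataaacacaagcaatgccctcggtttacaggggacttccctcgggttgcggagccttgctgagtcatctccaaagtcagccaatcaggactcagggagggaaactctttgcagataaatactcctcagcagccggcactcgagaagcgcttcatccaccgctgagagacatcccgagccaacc
Ifit1: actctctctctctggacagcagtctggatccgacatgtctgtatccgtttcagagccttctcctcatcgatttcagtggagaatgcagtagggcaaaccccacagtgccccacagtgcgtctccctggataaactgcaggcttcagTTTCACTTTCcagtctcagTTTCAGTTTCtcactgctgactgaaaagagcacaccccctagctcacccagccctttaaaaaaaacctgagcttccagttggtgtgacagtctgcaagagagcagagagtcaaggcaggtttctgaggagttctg
Isg15: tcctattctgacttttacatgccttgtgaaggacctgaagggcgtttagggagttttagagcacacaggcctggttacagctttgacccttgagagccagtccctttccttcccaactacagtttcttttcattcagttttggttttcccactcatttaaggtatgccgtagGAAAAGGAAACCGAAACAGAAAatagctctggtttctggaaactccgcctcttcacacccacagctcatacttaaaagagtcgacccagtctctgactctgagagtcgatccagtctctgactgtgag
Saa3: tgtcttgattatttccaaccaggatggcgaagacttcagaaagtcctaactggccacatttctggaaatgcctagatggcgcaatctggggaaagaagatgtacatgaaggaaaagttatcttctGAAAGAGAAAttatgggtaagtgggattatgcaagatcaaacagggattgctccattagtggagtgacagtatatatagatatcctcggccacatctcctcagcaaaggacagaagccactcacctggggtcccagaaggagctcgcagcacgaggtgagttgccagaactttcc
The match in the promoter of Cxcl10 begins at -213 from the start site, those of Ifit1 at -104 and -85, the overlapping ones of Isg15 at -78, -72 and -66, and that of Saa3 at -125.

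The ISRE core stood in 381 of 11866 promoters of measured genes (3.21%). Among genes up by the scanner and down by the table it stood in 19 of 80 promoters (23.8%), from 69 of 88 named genes with a promoter in the RefSeq table. It was in 2 of 34 promoters (5.88%) of genes up in both, those of Saa3 and Stat4, in 0 of 9 of genes down in both, and in 0 of 25 of genes down by the scanner and up by the table. For the type I interferon list the count was 13 of 27 (48.1%) and for the GTPases 8 of 9 (88.9%). The NF-kB core, GGGA followed by any base and TTTCC, also read on both strands, stood in 58 of 11866 (0.489%) and in none of the promoters of these 4 classes. At so low a share, finding none in so few promoters says nothing about the classes. Only this core was searched, so sites with other letters were not counted. The shares of the opposed classes were added after the data were seen, and a match is a description of letters, not a bound site.

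**Figure D3:**
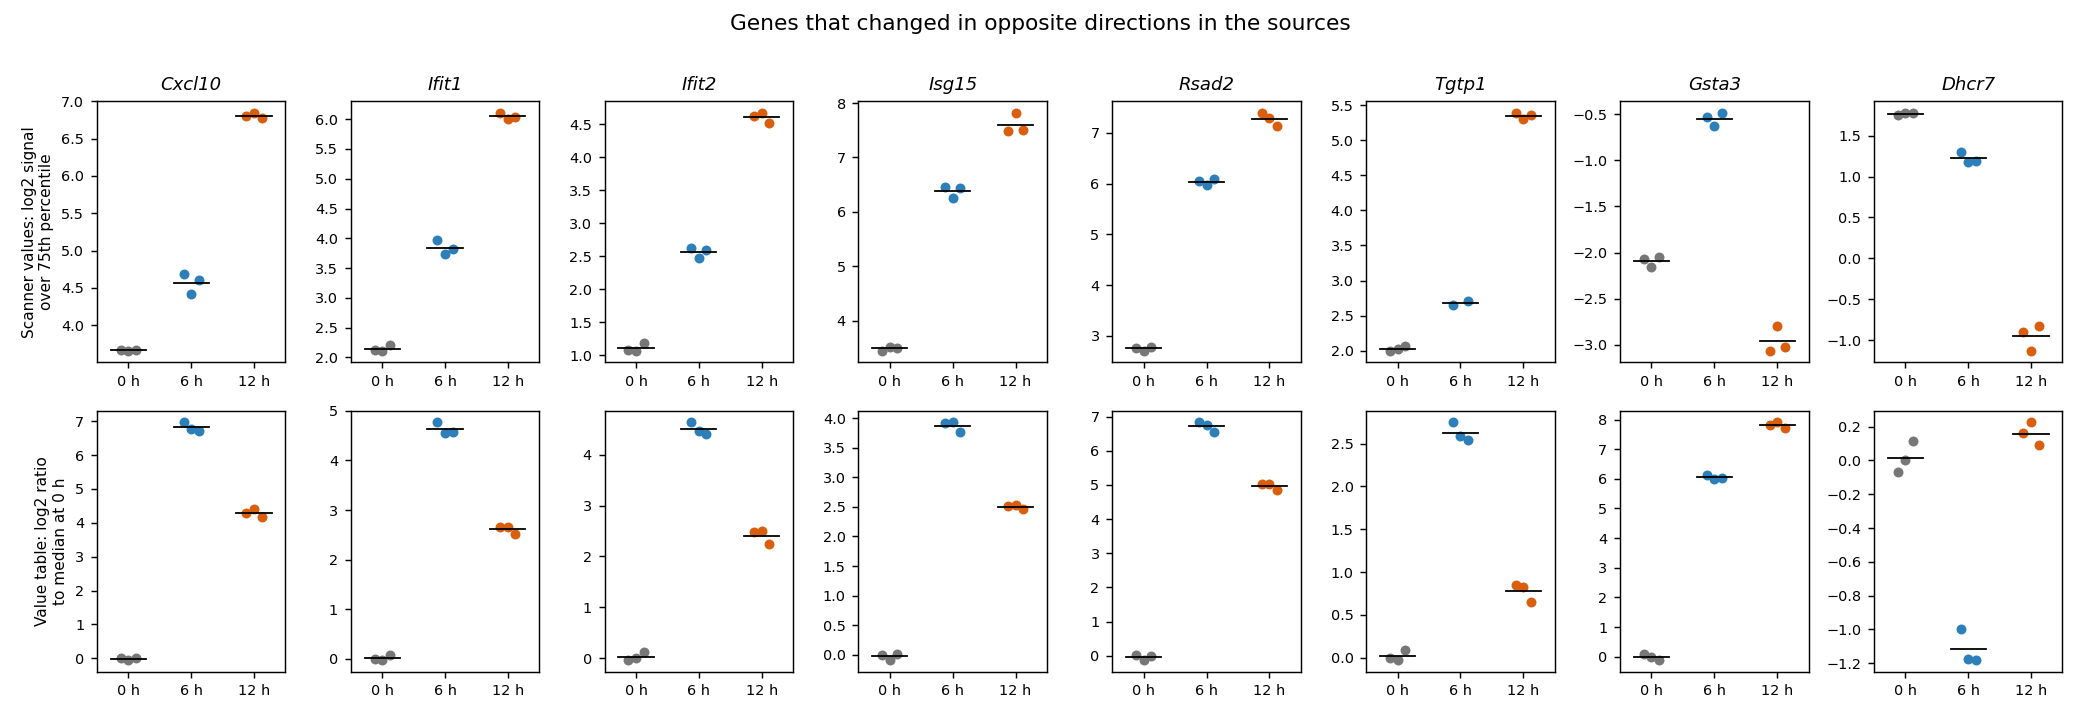
Levels of 8 genes that changed in opposite directions, in order of time (0, 6 and 12 h); the upper row gives scanner levels (log2 over the 75th percentile of the array), the lower row log2 table ratios, points are samples and bars are group means. Cxcl10, Ifit1, Ifit2, Isg15, Rsad2 and Tgtp1 are higher at 12 h than at 6 h in the upper row and lower in the lower row, and Gsta3 and Dhcr7 show the reverse.

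The reverse opposition, down by the scanner and up in the table, was led by α-class glutathione S-transferases, which detoxify lipid peroxidation products and are targets of NRF2. Gsta3 had scanner levels of -3.06, -2.80 and -3.02 at 12 h, against -0.53, -0.62 and -0.49 at 6 h, a fall of 5.34-fold (-2.42 ± 0.069, adjusted p = 2.99e-09). Its table ratios were 227, 239 and 211 at 12 h, against 69.8, 64.3 and 64.6 at 6 h, a rise of 3.40-fold (1.77 ± 0.069, adjusted p = 1.04e-07). Gsta1 and Gsta2, near-identical to each other, were not well above background at 12 h. Their fall on the arrays was at least 13.5-fold and 5.84-fold (adjusted p = 2.62e-06 and 2.05e-06), and they rose 5.43-fold and 5.71-fold in the table (adjusted p = 1.69e-04 and 2.22e-05). Of the NRF2 and antioxidant genes, 22 in all with Gsta3, 1 rose by the scanner. By the scanner 4.89% of all genes rose and 2.1% fell. Besides Gsta3, 3 further genes of this list fell by the scanner alone. They include Nqo1, a quinone reductase, which fell 4.20-fold by the scanner and had a table difference of -0.18 ± 0.069 (adjusted p = 0.056), and Me1, malic enzyme, which fell 2.83-fold and had a table difference of -0.11 ± 0.15. Pgbd5 and the acyl-CoA thioesterase gene Acot1 were not well above background on any array of either time, so they have no scanner fold. They rose 4.07-fold and 2.55-fold in the table. Quantile normalization ended the table calls of Gsta1 (1.85) and Gsta2 (2.04), and normexp correction the scanner call of Gsta2 (-0.86).

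Sterol and fatty acid synthesis genes fell by the scanner and, with 1 exception, were not called in the table. Of 25 measured genes 20 fell and 0 rose in the scanner values, with a median difference of -1.93, whereas 1 rose and 0 fell in the table, with a median of 0.092 that became -0.054 when columns were centred. Relative to 0 h the median member stood at -0.084, -0.0027 and 0.043 by the scanner at 12 h, against 1.30, 1.15 and 1.27 at 6 h. In the table it stood at 1.10, 1.12 and 1.08 at 12 h, against 1.12, 0.88 and 0.99 at 6 h. The medians at 6 h were thus close in both sources, although single genes such as Lss and Dhcr7 also differed at 6 h. The scanner's median at 12 h was near its 0 h level while the table's was not. Lss, lanosterol synthase, had scanner levels of -1.47, -1.51 and -1.33 at 12 h, against 1.38, 1.30 and 1.49 at 6 h, a fall of 7.08-fold (-2.82 ± 0.071, adjusted p = 1.52e-09). In the table its ratios were 2.92, 2.97 and 2.91 at 12 h, against 2.37, 2.32 and 2.22 at 6 h (difference 0.35 ± 0.058, adjusted p = 7.32e-04). Dhcr7, the last enzyme of cholesterol synthesis, was the list's opposed member. It fell 4.52-fold by the scanner, with levels of -0.90, -1.13 and -0.83 at 12 h, against 1.30, 1.18 and 1.19 at 6 h, and rose 2.42-fold in the table, with ratios of 1.12, 1.17 and 1.06 at 12 h, against 0.501, 0.443 and 0.441 at 6 h, a table call lost under quantile normalization (0.99). Scd2, a fatty acid desaturase, fell 5.57-fold by the scanner and had a table difference of 0.70 ± 0.073. In the other direction, 4 of 18 genes of LXR and PPAR lipid handling rose by the scanner and 1 fell, with 0 called in the table. Among them the cholesterol exporter Abcg1 rose 2.60-fold, the fatty acid carrier Fabp4 rose 2.87-fold and Lipa, the lysosomal lipase, fell 2.47-fold.

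Mitosis and chromosome segregation genes had negative medians in both sources, with most of the calls in the table. Of 27 measured genes 14 fell in the table, with a median of -1.03, and 1 fell by the scanner, with a median of -0.31. The table's count rested on scaling, at 2 after quantile normalization and 21 after centring. By sample the median member stood at -2.00, -1.99 and -1.93 relative to 0 h by the scanner at 12 h, against -1.55, -1.65 and -1.56 at 6 h. In the table it stood at -1.68, -1.74 and -1.81 at 12 h, against -0.62, -0.85 and -0.81 at 6 h. The sources ended close to each other at 12 h and differed at 6 h. Top2a, DNA topoisomerase II, and Cenpe, a kinetochore motor, both taken after their values were seen, fell in the table (-1.44 ± 0.079 and -1.60 ± 0.18, adjusted p = 6.24e-07 and 5.81e-05) and had scanner differences of -0.13 ± 0.039 and -0.13 ± 0.085. Of 29 genes of DNA replication and S phase none was called in either source at 2-fold.

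**Figure D4:**
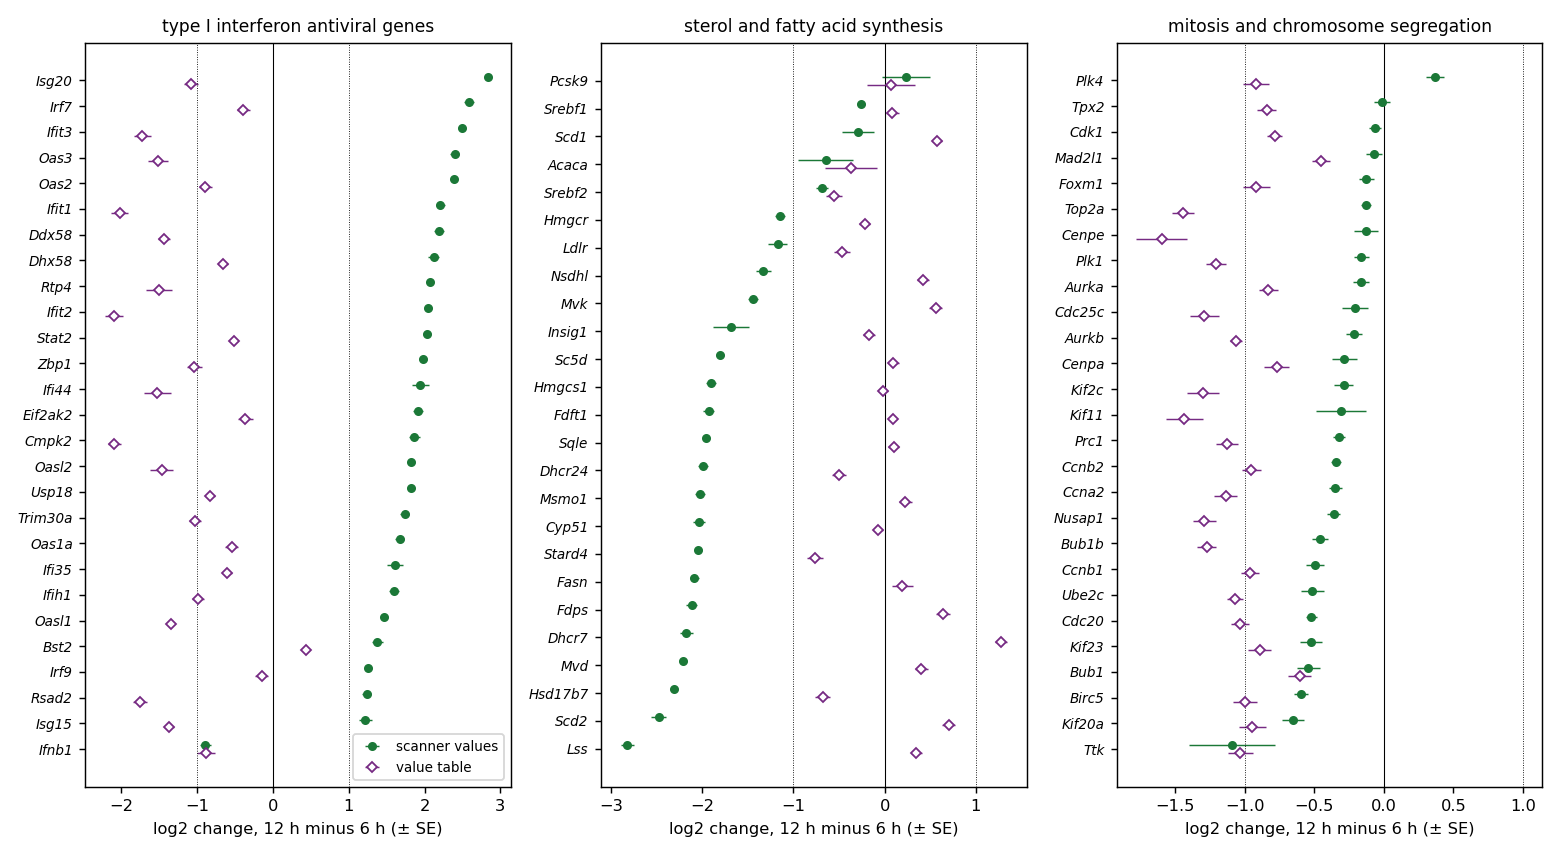
Change between 6 h and 12 h (log2, ± SE) of measured members of 3 lists, with filled circles for the scanner values, open diamonds for the value table and dotted lines at 2-fold. Interferon genes lie right of the upper line by the scanner and left of 0 in the table for most members, most sterol genes lie left by the scanner and nearer 0 in the table, and most mitosis genes lie left of 0 in both.

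Cytokine genes other than Csf2 were called in at most 1 source. Among 20 measured cytokine genes the scanner called 5 up and 2 down, where it called 4.89% and 2.1% of all genes. None rose and 4 fell in the table, where 3.07% and 2.73% of all genes did. Il6, a driver of acute inflammation, was saturated on 1 array at 12 h and 2 at 6 h, so no scanner difference is given, and it differed by -0.46 ± 0.070 in the table (adjusted p = 4.08e-04). Tnf differed by -0.41 ± 0.053 and -0.95 ± 0.055, and Il1a by -0.0092 ± 0.073 and -0.63 ± 0.078. Il1b was saturated at both times on the arrays and differed by -0.59 ± 0.051 in the table. Il10, which restrains inflammation, rose 2.70-fold by the scanner (1.44 ± 0.081, adjusted p = 3.18e-07) and was not called in the table (0.13 ± 0.092, adjusted p = 0.268). Of 6 neutrophil-attracting CXC chemokines 2 fell by the scanner, Ppbp and Cxcl5, the second taken after its value was seen. Cxcl1 differed by -0.93 ± 0.088 by the scanner and by -0.34 ± 0.57 in the table. Among CC chemokines, Ccl4 and Ccl17 were saturated on the arrays at both times and fell 2.97-fold and 2.08-fold in the table, the second a call lost under quantile normalization (-0.85). Ccl5 was saturated as well and had a table difference of 0.62 ± 0.080. Ptgs2, the inducible cyclooxygenase, differed by -0.49 ± 0.24 and -0.80 ± 0.070.

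Of 20 maturation and costimulation genes 1 rose by the scanner, and 2 rose and 2 fell in the table, with 0 shared calls. Over all genes 4.89% rose by the scanner, 3.07% rose and 2.73% fell in the table, and 0.31% rose and 0.103% fell in both. Ccr7 was higher at 12 h in every sample of both sources and passed 2-fold by the scanner alone. Its scanner levels were 7.13, 6.94 and 7.16 at 12 h, against 6.07, 5.90 and 6.16 at 6 h (1.03 ± 0.073, adjusted p = 1.68e-06), and its table ratios were 9.56, 9.65 and 9.0 at 12 h, against 5.77, 5.65 and 5.78 at 6 h (0.71 ± 0.069, adjusted p = 2.02e-05). Its scanner difference was 0.96 without 6 h replicate 2 and 0.99 without 12 h replicate 3, 0.94 under normexp and 0.89 under quantile normalization. Fscn1, the actin bundler of mature dendritic cells, was higher at 12 h in every sample of both sources, with a scanner difference of 0.81 ± 0.059 and a rise of 3.23-fold in the table (adjusted p = 2.32e-06 and 2.69e-07). Cd200, an inhibitory ligand, had a scanner difference of 0.75 ± 0.095 and rose 2.72-fold in the table. The costimulator Cd86 had a scanner difference of 0.71 ± 0.060 and fell 2.03-fold in the table, with table ratios of 2.73, 2.77 and 2.41 at 12 h, against 5.80, 5.09 and 5.19 at 6 h. Without 6 h replicate 1 or 12 h replicate 3 that table difference was -0.97 and -0.96. Cd80 and Cd83 differed by 0.79 ± 0.058 and 0.38 ± 0.046 by the scanner and by -0.46 ± 0.12 and -0.33 ± 0.075 in the table. Nos2, inducible nitric oxide synthase, rose 3.47-fold by the scanner and had a table difference of 0.32 ± 0.15 (adjusted p = 0.117).

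Several processes had no member called in either source. They were oxidative phosphorylation and the citrate cycle (32 genes, medians of 0.027 by the scanner and 0.27 in the table), cytosolic ribosomal proteins (36 genes, 0.15 and -0.16), autophagy (20 genes, 0.14 and 0.13), aminoacyl-tRNA synthetases (18 genes, -0.29 and 0.33) and S phase. Without the 2-fold line the tests passed far more genes, 4830 up (26.2%) and 3900 down (21.2%) by the scanner and 5721 up (31.1%) and 3103 down (16.9%) in the table, so the absence of a call speaks of size. Centring each table column on its median shifted all table differences by 0.145 and changed its calls to 362 up and 714 down, 33.6% up against 53.0% in the table as deposited and 69.9% by the scanner.

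**Figure D5:**
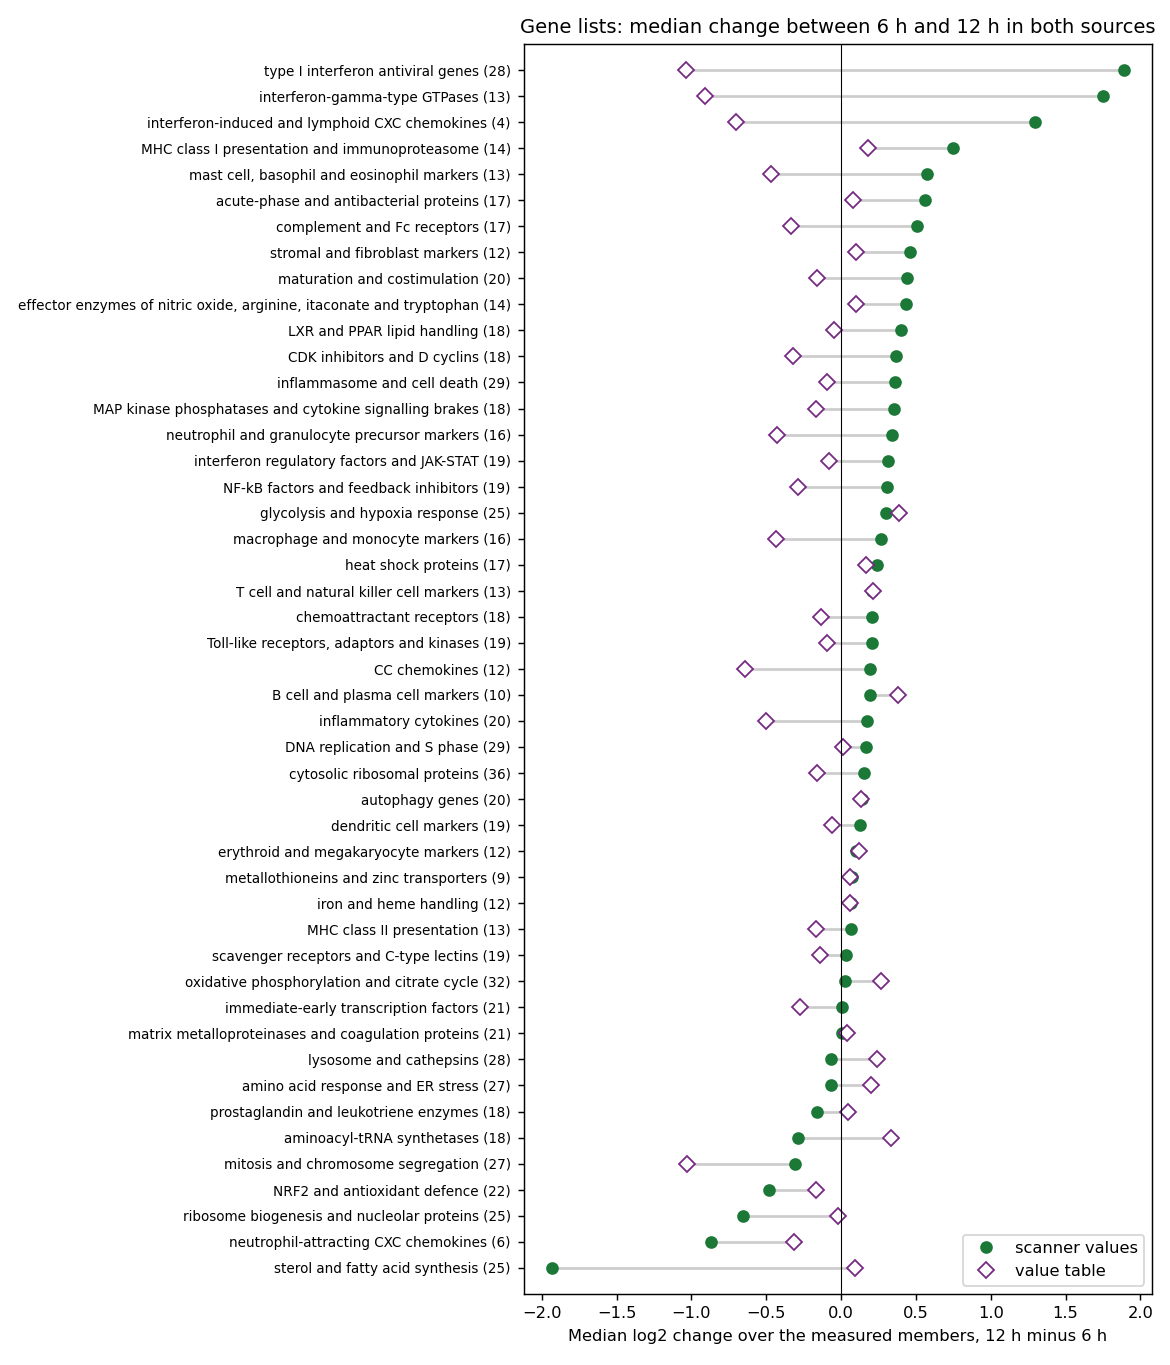
Median change between 6 h and 12 h (log2) over the measured members of each gene list, with filled circles for the scanner values and open diamonds for the value table; the number of measured genes is in parentheses. Of the lists plotted, the type I interferon genes (1.89 and -1.03), the GTPases (1.75 and -0.91) and the sterol genes (-1.93 and 0.092) have the widest gaps between the sources.

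Some markers of cells other than dendritic cells were called as well, again with different signs. For all genes the shares were 4.89% up and 2.1% down by the scanner, and 3.07% up and 2.73% down in the table. A share of 0.663% was up by the scanner and down by the table. Of 13 measured mast cell, basophil and eosinophil markers 4 rose by the scanner and 5 fell in the table, and 4 of them were opposed: Prg2, Epx, Il5ra and Hdc. Hdc, histidine decarboxylase, which makes histamine, had scanner levels of 6.77, 6.72 and 6.90 at 12 h, against 5.40, 5.28 and 5.41 at 6 h, a rise of 2.70-fold (adjusted p = 3.14e-08). The table gave ratios of 1.94, 1.85 and 1.89 at 12 h, against 9.11, 8.14 and 8.46 at 6 h, a fall of 4.53-fold (adjusted p = 1.68e-08). Epx, eosinophil peroxidase, rose 2.39-fold and fell 2.74-fold in the same order. Prg2, eosinophil major basic protein, rose 2.38-fold and fell 2.03-fold, a table call that was lost without 6 h replicate 3 (-0.99) or 12 h replicate 3 (-0.89). Quantile normalization ended the table calls of Epx (-0.98) and Prg2 (-0.65). Il5ra, taken after its value was seen, was not well above background at 6 h and rose at least 2.39-fold by the scanner, while its table groups overlapped (adjusted p = 0.0346). Cpa3, Mcpt8 and Prss34, proteases of mast cells and basophils, also chosen after their values were seen, were above background throughout and were called in neither source.

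Of 16 neutrophil and granulocyte precursor markers none was called by the scanner and 6 fell in the table: Elane, Ms4a3 and, named after their values were seen, Mpo, Prtn3, Ctsg and Retnlg. Elane, neutrophil elastase, had table ratios of 0.145, 0.0891 and 0.0547 at 12 h, against 0.417, 0.450 and 0.429 at 6 h, a fall of 4.85-fold (adjusted p = 1.32e-04), and a scanner difference of 0.56 ± 0.080. Ms4a3, a marker of granulocyte and monocyte precursors, had table ratios of 0.0681, 0.0712 and 0.0747 at 12 h, against 0.291, 0.282 and 0.275 at 6 h, a fall of 3.96-fold, and a scanner difference of 0.44 ± 0.066. Among 16 macrophage and monocyte markers 3 rose by the scanner and 4 fell in the table. Fcgr1, the high-affinity IgG receptor, which is also an interferon target, had scanner levels of 7.05, 7.13 and 6.99 at 12 h, against 3.97, 3.79 and 3.95 at 6 h, a rise of 8.90-fold (adjusted p = 2.97e-10), and table ratios of 0.144, 0.147 and 0.136 at 12 h, against 0.246, 0.229 and 0.202 at 6 h. Ccr2, the monocyte chemokine receptor, and C1qb fell 2.65-fold and 2.62-fold in the table, where quantile normalization ended the call of Ccr2 (-0.89). Of the dendritic cell markers, Ccr7 rose by the scanner, and Fscn1, Flt3 and Clec9a rose and Clec10a fell in the table, although Clec9a was not well above background on any of the 6 arrays and the call of Flt3 was lost under quantile normalization (1.27). Itgax differed by -0.22 ± 0.047 and -0.20 ± 0.061. Of 13 T cell and natural killer cell markers 4 rose by the scanner and none was called in the table, of 10 B cell and plasma cell markers 2 rose and 1 fell in the table alone, and of 12 stromal and fibroblast markers 3 rose by the scanner while 2 rose and 2 fell in the table. Of 12 erythroid and megakaryocyte markers 2 fell by the scanner and 1, Ppbp, also in the table. Several of these counts are small. The shares over all genes were 4.89% up and 2.1% down by the scanner and 3.07% up and 2.73% down in the table. No marker list was tested against them. The part of a change in cell makeup in the results above was not tested.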

How the data were processed

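Agilent 1-colour arrays were measured in 12 samples, 3 per time. The scanner files hold spot intensity, per the file headers and the submitters' processing notes from Agilent Feature Extraction 9.1.3.1, whose processed signal was already background-subtracted. The value table that the authors deposited holds, as tested on the file, a ratio to the probe's median at 0 h. Its scaling between columns and its background correction stay unknown, and its column medians were 1.334, 1.143 and 1.151 at 12 h and 1.026, 1.103 and 1.147 at 6 h. For the build behind the array's probes, the sources used here give no name.

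From the scanner files 732 outlier spots were left out, log2 was taken, the 75th percentile of the non-control spots was subtracted and spots of a probe were averaged. Probes well above background on every array of at least 1 group were kept (23489). RefSeq names matched by accession named 55.7% of 41174 probes, and each gene was read from its brightest kept probe, giving 18400 genes, 11576 with a symbol. Both sources were fitted with limma 3.58.1 in R 4.3.3 to 4 group means over 12 samples, with 8 residual degrees of freedom, and the contrast was 12 h minus 6 h. A joint fit added source and its interaction. The scripts were checked on simulated data. The number of arrays limits the precision.

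A gene not well above background on any array of a time, or saturated on every array, is given as "at least N-fold": the bright group's mean against the dim group's mean of, per array, the higher of the lowest signal well above background and the probe's own. This touched 199 scanner calls dim at 6 h, 39 dim at 12 h, 4 saturated at 12 h and 34 dim at both times. An adjusted p printed beside a bound for a dim gene tests the difference without that bound. Some genes dim at 6 h, among them Il23r, Lrig1, Lrrc4 and Klrc1, were kept only through the 12 h arrays, where they are high.

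Genes were named by a rule, and some that it takes are not reported here. With a symbol and with samples of the groups not overlapping in each source that calls them, it took up to 12 up and 12 down in both sources and 6 in each opposed direction, ranked by the smaller change, and the 4 largest in each direction called in 1 source. From each of 47 lists (932 genes) it took up to 3 shared in each direction and 3 opposed, or 2 per direction in 1 source where none was shared, besides 16 fixed markers. The comparison, the lists and the rule were chosen with earlier results of these data known, and the lists come from textbook knowledge; p-values measure the spread between 3 samples a group. The main fit did not pair samples by replicate number. The normexp alternative used the median spot signal, since the files hold no mean signal. Gene names and promoters come from RefSeq tables of GRCm38.p6, which held promoters for 9333 of 11576 genes. Alternatives covered background correction, normalization, filters, probes, slide, replicates, samples and thresholds.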

Additional observations from a re-analysis of the deposited data

How the results depend on the processing

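Counts of called genes moved with several choices, and the cause was not tested unless stated. Normexp background correction gave 430 genes up and 147 down by the scanner, with 25 up and 4 down in both. Under normexp 83 were up by the scanner and down in the table, and 7 down by the scanner and up in the table. This correction turned the sign of the scanner difference of Epha2 (0.088), Ttk (0.26) and Acot1 (0.031), all dim. It weakened 26 of 105 named scanner calls below the threshold and reversed 3, and quantile normalization weakened 37 of 100 named table calls and 4 of 105 scanner calls. Quantile normalization gave 204 up and 192 down in the table, with 25 up in both, 58 up by the scanner and down in the table and 12 the other way. Keeping only genes well above background on all 6 arrays, which tests fewer genes, gave 589 up by the scanner, 32 up in both and 12 down in both. With that filter 85 were up by the scanner and down in the table, and 15 the other way. Centring gave 362 up in the table. A 1.5-fold line gave 1951 up and 1202 down by the scanner and 1841 and 1233 in the table, with 249 up and 100 down in both and 313 and 201 opposed. No fold line gave 1553 up and 646 down in both and 1102 and 1717 opposed, beside 4830 and 3900 by the scanner and 5721 and 3103 in the table. Taking the table for the scanner values gave 565 up.

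Leaving out 1 sample gave 863 to 982 up and 378 to 425 down by the scanner, 535 to 650 up and 472 to 581 down in the table, 54 to 59 up and 16 to 23 down in both, and 100 to 138 and 26 to 36 opposed. The deviations of same-numbered samples at 6 and 12 h correlated at 0.12, 0.0061 and 0.15 on the arrays and at 0.098, 0.23 and 0.074 in the table. Those of samples with other numbers correlated at -0.17 to 0.084 on the arrays and at -0.18 to 0.088 in the table. These values do not settle whether samples of the same number came from the same experiment. A replicate block gave 895 up and 386 down by the scanner, 568 and 507 in the table, 58 and 19 in both, and 122 and 31 opposed. The type I interferon list kept opposite medians under normexp (1.78 by the scanner) and under quantile normalization (1.70 by the scanner and -1.04 in the table). The slide as a fixed block gave 884 up and 470 down by the scanner, with 99 up by the scanner and down in the table and 41 the other way. Signal over background limits the 199 scanner calls dim at 6 h and the 39 dim at 12 h to bounds, and the 34 dim at both times have no fold.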

Other observations

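Some of the largest changes appeared in 1 source. By the scanner Ly6a, the surface antigen Sca-1 and an interferon target, rose 12.4-fold (3.63 ± 0.14), with a table difference of 0.55 ± 0.15. Lrrc4 and the natural killer receptor gene Klrc1 were not well above background at 6 h and rose at least 3.85-fold and 2.38-fold, the second a call lost under normexp (0.78). Cyp26b1, which breaks down retinoic acid, fell 8.64-fold by the scanner (-3.11 ± 0.25), against 0.061 ± 0.31 in the table. Chst10, a sulfotransferase, fell 7.04-fold, against 0.66 ± 0.097. In the table Clu, the chaperone clusterin, rose 15.2-fold (3.93 ± 0.064), with a scanner difference of 0.74 ± 0.062. Akr1c18, a progesterone-metabolising reductase, fell 7.84-fold (-2.97 ± 0.076), with a scanner difference of -0.75 ± 0.096.

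Further opposed genes lay outside the interferon lists. Kmo, kynurenine monooxygenase of tryptophan breakdown, rose 4.05-fold by the scanner and fell 4.12-fold in the table, where its ratios were 0.0117, 0.0159 and 0.0175 at 12 h, against 0.0626, 0.0577 and 0.0629 at 6 h. Slfn4, a Schlafen family gene of myeloid cells, rose 13.6-fold and fell 2.21-fold. Pecam1, an adhesion molecule of endothelium and leukocytes, rose 2.36-fold and fell 4.67-fold. Normexp correction ended the scanner calls of Kmo (0.88) and Pecam1 (0.92), and quantile normalization the table call of Slfn4 (-0.93).

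Among other lists, 3 of 25 ribosome biogenesis genes fell by the scanner, with a median of -0.65, and none was called in the table. Rrp12, a processing factor of ribosomal RNA, fell 2.89-fold by the scanner and had a table difference of -0.071 ± 0.13, with a scanner call lost under normexp (-0.65). Of 29 inflammasome and cell death genes 3 rose by the scanner and none was called in the table, among them Casp4, the sensor of cytosolic lipopolysaccharide (1.30 ± 0.037, against -0.38 ± 0.074 in the table). Of 14 MHC class I presentation genes the peptide transporter Tap1 and the immunoproteasome subunit Psmb9 rose by the scanner, by 3.42-fold and 3.03-fold. Over all genes 4.89% rose and 2.1% fell by the scanner.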
